A study of Drosophila melanogaster with 13 samples.

Results

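The proboscis transcriptome of Drosophila melanogaster on a control diet was described from the 2 libraries labelled normal diet, out of 13 libraries in the series. They were chosen by that label alone. Both were made from flies of the genotype called parental, which spent 7 days on standard cornmeal food, and no agent, driver or transgene is named for them. Each library pooled 200 dissected proboscises, so the spread between the 2 libraries is one between pools and not between flies. The labels give the tissue as labellum, the protocol speaks of the whole proboscis, and sex and strain are not given. The other libraries of the series, from flies fed extra sugar for 7 days (n = 2) and from flies carrying Gr5a-GAL4 with (n = 5) or without (n = 4) an RNA interference construct against OGT, are not described here, apart from 1 gene in the sugar diet libraries. Levels are TPM, the authors' library-scaled estimate of transcript abundance per length, summed over the transcripts of a gene. Paired values are those of replicate 1 and then replicate 2 of the control diet. The libraries held 7563260 and 8109905 estimated counts. A count of 0 allows up to 3 counts, or 0.397 and 0.370 CPM (library-scaled counts). This limit covers counting error alone, because reads had no molecular identifiers.

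The proboscis is the extensible mouthpart of the fly. Its tip, the labellum, bears taste hairs and pegs, in which a few sensory neurons are wrapped by support cells that secrete the fluid around their dendrites, and its shaft holds the pharynx, the muscles that extend the organ and pump food, tracheae and a covering of epidermis and cuticle. Sweet and bitter compounds are sensed by gustatory receptors (Gr), and salts, acids and water largely by ionotropic receptors (Ir) and pickpocket (ppk) channels. In a bulk sample of this kind, fewer cells of a type and less RNA per cell cannot be told apart.

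Of 13893 genes, 9014 (64.9%) had 1 TPM or more in both libraries, and these are called detected below. Counts of detected members of a list are to be read beside this share, and a list near it does not stand out by its count. A further 669 reached 1 TPM in 1 library, and 2021 were listed at 0 in both. The median was 4.59 TPM over all genes and 12.7 TPM over detected genes. Of all genes, 4847 had 10 TPM or more in both libraries, 829 had 100 or more and 84 had 1000 or more. Detection at the low end rested on few reads, since 508 of the detected genes had under 10 estimated counts in at least 1 library. The most abundant genes filled much of each library. The first 10 held 42.6 and 39.0% of TPM in replicates 1 and 2 (40.8 ± 2.57%, SD, n = 2), the first 30 held 55.2 and 51.7%, and the first 100 held 64.9 and 62.1%.

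The 2 libraries were alike in the order of their genes. Spearman's rho was 0.979 over the 11872 genes above 0 in either library, and Pearson's r of log2(TPM + 1) was 0.984 over the 9375 genes with a mean of 1 TPM or more. Both are correlations across genes, which are not independent replicates. The median absolute difference between the libraries on log2(TPM + 1) was 0.15 over all genes. It was 0.24 over the 4305 genes with a mean of 1 to 10 TPM, 0.14 over the 4195 genes of 10 to 100 TPM and 0.12 over the 875 genes of 100 TPM or more; the gap was narrower at higher abundance. As a check that the files are not 1 library deposited as 2, the chi-square of the counts was 16.5 per degree of freedom over 9656 genes, or 3.44 without the gene CG15579, where sampling noise alone gives about 1.

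Of 5070 genes with a mean of 10 TPM or more, 20 differed by at least 1 on the log2 scale, 17 of them higher in replicate 2. The widest gap was that of CG15579 (FBgn0040906, X from 4311279 to 4311799), with 68315 TPM in replicate 1 and 1641 TPM in replicate 2, a log2 difference (replicate 2 minus replicate 1) of -5.38. This is 6.84% of all TPM in 1 library and 0.164% in the other, from 125522 and 3065 estimated counts. No role is given for this gene, and its mean of 34978 ± 47146 TPM (SD, n = 2) has an error larger than itself. His1:CG33816, 1 of many near-identical copies of the linker histone gene among which reads cannot be told apart, followed with 0.000807 and 34.6 TPM. NtR, annotated by its name as a neurotransmitter receptor gene, had 4.84 and 26.8 TPM. For bru3, which encodes an RNA-binding protein of the Bruno family, the values were 185 and 617 TPM, the largest such gap among the other genes above 100 TPM in the mean. The remaining genes among the 10 with the widest gaps, CG43841, CG32939, CG34228, robl, Hr4 and galla-2, had means of 13.1 to 27.5 TPM and log2 differences of 1.15 to 1.78. Because TPM sums to a fixed total, the 6.84% taken by CG15579 in replicate 1 lowered all other genes there. The median signed difference over the 5070 genes was 0.10 on the log2 scale as deposited and 0.01 after both libraries were rescaled without that gene.

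**Figure D1:**
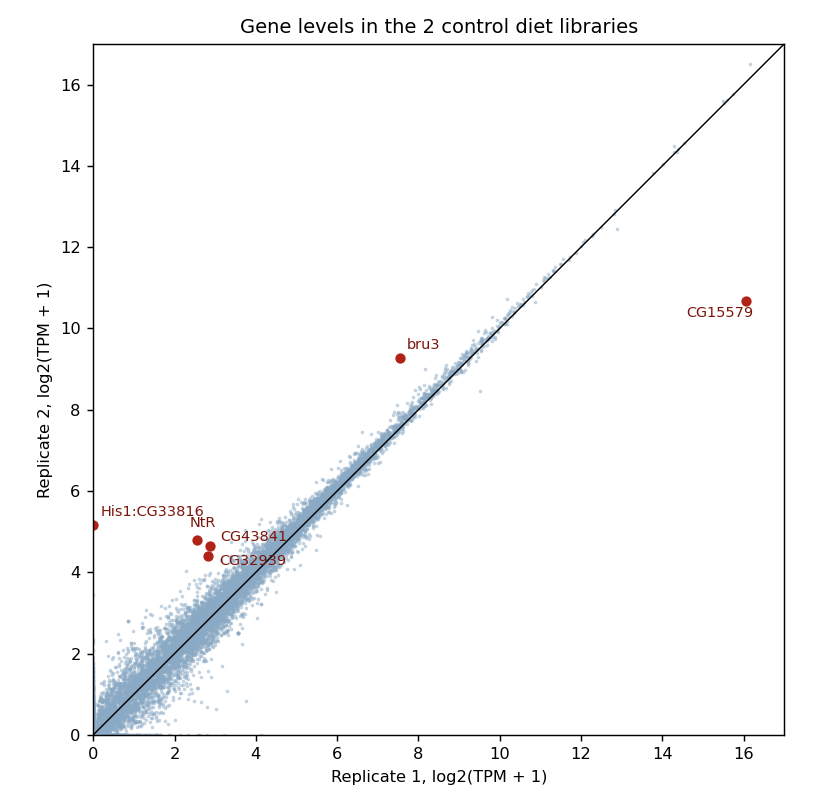
Level of each gene as log2(TPM + 1) in replicate 1 (x axis) and replicate 2 (y axis) of the control diet, with the line of equality. Points close in on the line toward higher levels, and the labelled genes in red are the 6 with the widest gap among genes with a mean of 10 TPM or more, with CG15579 far below the line at 68315 and 1641 TPM.

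The list of most abundant genes was led by short, little-studied genes and by the mitochondrial genome. CG12158 (FBgn0040775, 2R from 9362574 to 9362906), with a transcript of 279 bases and no known role given, was first with 73399 and 93869 TPM. Its place depended on the authors' effective length, and with counts per annotated length its mean was 40293 TPM, against 83634 TPM as deposited, and it was 5th. It was followed by mt:CoIII, a cytochrome c oxidase subunit of the mitochondrial genome, with 54598 and 56201 TPM. CG8343 (FBgn0040502, 2R from 6179726 to 6180356), described as a C-type lectin in the gene text of the authors' deposited table, had 49555 and 50753 TPM. Lectins of this type bind sugars on glycoproteins and microbes. Arc1 (FBgn0033926, 2R from 14357927 to 14360297) had 46567 and 49529 TPM. It encodes a relative of retrotransposon Gag proteins that packs RNA into capsids and is known from neurons and synapses. mt:CoI, another cytochrome c oxidase subunit, had 46714 and 47531 TPM, and CG15579 came next. Among these genes other than CG15579 the widest gap between the libraries was that of CG12158, 0.35 on the log2 scale.

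Genes for 3 serine proteases, so described in the authors' deposited table, stood within the first 10. CG3088 had 23806 and 24220 TPM, CG9676 had 21262 and 21859 TPM, and CG8329 had 21248 and 20899 TPM. CG3088 (3L from 9600490 to 9601325) and CG8329 (3L from 9638112 to 9639021) lie on the same arm, and CG9676 is on X. CG11368, a gene with no role given, completed the 10 with 20139 and 22811 TPM. With counts per annotated length the mean of CG11368 was 13761 TPM, in 13th place, and by estimated counts it was 33rd. The genes in places 11 to 13 were mt:ATPase6, mt:Cyt-b and mt:ND1, at means of 20292, 16767 and 14288 TPM. Below them the levels dropped to 7533 ± 257 TPM (SD, n = 2) for Adh, the alcohol dehydrogenase.

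**Figure D2:**
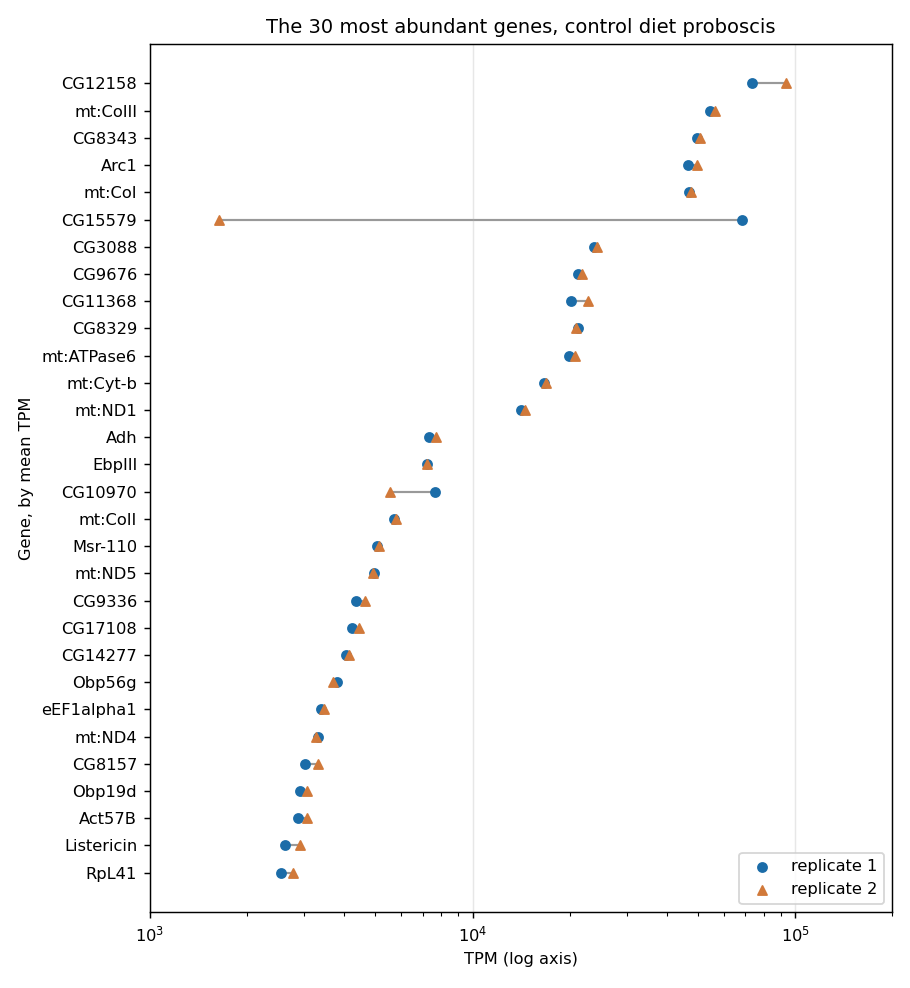
TPM (log axis) of the 30 genes with the highest mean, in replicate 1 (circles) and replicate 2 (triangles) of the control diet, joined by a line and sorted by mean. The symbols of a gene nearly coincide from CG12158 at the top to RpL41 at the bottom, except for CG15579 and, more narrowly, CG12158 and CG10970.

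The rest of the 30 combined proteins of taste and body fluids with muscle, translation and defence. EbpIII, of the odorant-binding protein fold, had 7219 and 7217 TPM, and the odorant-binding proteins Obp56g and Obp19d had 3787 and 3691 TPM and 2910 and 3063 TPM. Act57B, a muscle actin, had 2884 and 3061 TPM. Listericin, an antimicrobial protein, had 2629 and 2919 TPM, eEF1alpha1, the translation elongation factor, had 3389 and 3462 TPM, and RpL41, a protein of the large ribosomal subunit, had 2546 and 2772 TPM. The other members were mt:CoII, mt:ND5, mt:ND4, Msr-110 and the genes CG10970, CG9336, CG17108, CG14277 and CG8157, with means between 3172 and 6595 TPM. Of the 30, 12 were known by a CG number only, as were 7 of the first 10 and 24 of the first 100, against 49.5% of all genes (6876 of 13893). Genes of that kind held 42.3 and 39.0% of TPM.

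The order depended on length, since TPM counts molecules and reads count bases of RNA. By estimated counts Arc1 was first with 7.40 and 7.51% of all counts, whereas CG12158 was 17th in that order with 0.562 and 0.652%. The second place by counts belonged to Msp300 (FBgn0261836, 2L from 5100877 to 5207002), a giant protein that anchors nuclei in muscle, with a leading transcript of 43121 bases. It took 5.89 and 6.06% of counts, while its level of 2229 and 2437 TPM was 36th by TPM. Other giants were high by counts only. The titin-like gene sls took 1.39 and 1.40% of counts at 538 and 556 TPM. For dpy, which encodes a matrix protein that ties epidermis and muscle to the cuticle, 1.31 and 1.37% of counts stood beside 331 and 356 TPM. The cytoskeletal linker gene shot had 0.788 and 0.814% of counts at 454 and 490 TPM. Msp300, sls, dpy and shot were named after their values were seen. Of the 30 leading genes by TPM, 18 were also among the 30 leading genes by counts.

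Energy production was represented throughout. All 13 protein genes of the mitochondrial genome were detected and held 16.9 and 17.3% of TPM (17.1 ± 0.274%, SD, n = 2), with levels of 221 TPM for mt:ND6 to 55400 TPM for mt:CoIII. They encode subunits of the respiratory chain and of the ATP synthase. The nuclear genes of oxidative phosphorylation were detected in 72 of 85 cases with a median of 133 TPM, at the 95.2nd percentile of all genes, led by ATPsynC, a subunit of the ATP synthase, with 2332 and 2580 TPM. All 14 glycolysis genes were detected with a median of 254 TPM. Ald, the aldolase, led them with 1618 and 1746 TPM, and Eno (enolase) had 601 and 633 TPM, whereas ImpL3, the lactate dehydrogenase, was lowest with 14.9 and 16.1 TPM. The 16 genes of the tricarboxylic acid (TCA) cycle were all detected, between 71.9 and 509 TPM, with Nc73EF, a subunit of the oxoglutarate dehydrogenase complex, highest at 494 and 524 TPM. Fatty acid synthesis genes were detected in 11 of 12 cases, with the desaturase gene Desat1 at 691 and 672 TPM and ACC, the acetyl-CoA carboxylase, at 265 and 281 TPM.

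Protein synthesis genes formed the other large block. Of 88 cytosolic ribosomal protein genes 83 were detected, with a median of 763 TPM at the 99.1st percentile, and together they held 6.83 and 7.29% of TPM. Of the 100 most abundant genes 27 belonged to them. RpL41, RpS29, RpL37a and RpS7 were the highest, with means of 2659, 2253, 2238 and 1860 TPM. The 75 mitochondrial ribosomal protein genes were also all detected, but with a median of 8.43 TPM, at the 60.5th percentile. mRpS5 was their highest member with 136 and 122 TPM. All 32 proteasome genes were detected within a narrow range of 15.1 to 71.1 TPM.

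Muscle was the tissue with the highest marker levels among the 20 lists of tissues and cell types. All 19 genes for proteins shared by muscles were detected, with a median of 390 TPM at the 98.1st percentile, and their levels ran from 56.5 to 2973 TPM. After Act57B came Mf (myofilin), a thick filament protein, with 2524 and 2743 TPM. Zasp66, a protein of the Z-disc, had 973 and 1180 TPM, and Mlc2, the regulatory myosin light chain, had 884 and 930 TPM. The myosin heavy chain gene Mhc had 599 and 552 TPM. Members of the families in which each muscle type has its own version were far apart. Among actins and troponin C isoforms, Act57B, Act5C (a cytoplasmic actin), TpnC25D and Act87E led with means of 2973, 770, 549 and 299 TPM. The 3 markers of the indirect flight muscles, named here after their values were seen, were low. The flight muscle actin Act88F had 1.29 and 0.379 TPM from 10 and 3 counts. For flightin (fln) the values were 0.432 and 0 TPM, and the flight muscle troponin C gene TpnC4 had 2.20 and 2.69 TPM.

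Nervous tissue was present at intermediate levels. All 12 neuronal markers were detected, with a median of 19.4 TPM at the 75.0th percentile and a range of 5.50 to 101 TPM. Syx1A, a syntaxin of the presynaptic membrane, had 94.3 and 107 TPM, and unc-13, which primes synaptic vesicles, had 46.5 and 55.5 TPM. nSyb, the neuronal synaptobrevin, had 40.7 and 43.6 TPM, and elav, the RNA-binding protein used to mark neurons, had 35.1 and 39.3 TPM. The 13 genes of synaptic vesicle release were all detected with a median of 23.5 TPM. Transmitter genes differed widely, with 8 of 13 (61.5%) detected, near the 64.9% of all genes. The highest was ple, the tyrosine hydroxylase, with 70.2 and 72.0 TPM, an enzyme that also serves the tanning of cuticle in epidermis. Vmat, the vesicular monoamine transporter, had 25.0 and 27.9 TPM, SerT, the serotonin transporter, had 14.2 and 12.7 TPM, and VAChT, the vesicular acetylcholine transporter, had 10.8 and 10.7 TPM. Among the members outside the naming rule, the glutamate transporter VGlut had 1.26 and 1.51 TPM and Gad1, the enzyme that makes GABA, had 0.257 and 0.377 TPM.

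The potassium, sodium, calcium and leak channels and glia followed the neuronal level. Of 14 potassium channel genes 11 were detected, with slo, Shab, Irk2 and Irk1 at means of 51.9, 48.8, 46.3 and 42.1 TPM. All 9 genes of sodium, calcium and leak channels were detected, led by Ih, the hyperpolarization-activated channel, with 45.5 and 51.6 TPM and by the sodium channel para with 26.2 and 28.6 TPM. The 10 nicotinic acetylcholine receptor subunit genes were lower, with 6 detected and a median of 1.98 TPM. Their highest member, nAChRalpha6, had 4.72 and 6.04 TPM. Of 9 glial markers 7 were detected. Gs2 (glutamine synthetase) was highest with 595 and 567 TPM, and the glial transcription factor repo had 20.5 and 16.5 TPM. In contrast the GABA transporter Gat had 0.545 and 0.853 TPM, and wrapper had 0 and 0.0993 TPM. Piezo, the mechanosensory channel, had 38.3 and 40.3 TPM, and nompC, the channel of touch-sensitive bristles, had 11.2 and 13.3 TPM. The chordotonal channel genes iav and nan, which act in stretch receptors, had 0.811 TPM in the mean and 0 TPM. Of the ciliary and mechanosensory list 7 of 10 members (70%) were detected, near the 64.9% of all genes.

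Odorant-binding proteins, some of them secreted by support cells of taste hairs, had the highest levels among the sensory lists. All 9 markers of support cells were detected, with a median of 22.9 TPM and levels from 4.52 to 3739 TPM. The highest members were odorant-binding proteins. The median was that of Obp57e, with 29.8 and 16.0 TPM from 37 and 20 counts. How abundant the cells themselves are was not tested. Obp49a, which is secreted by support cells of taste hairs and binds bitter compounds, had 2563 and 2741 TPM. The list also held the transcription factor pros with 66.3 and 71.7 TPM, nompA, which links dendrite and cuticle, with 13.3 and 13.4 TPM, and Sox15 with 9.09 and 10.5 TPM. The odorant-binding proteins, small carriers of the sensillum fluid, were a family of extremes. Of 52 genes 28 were detected, the family median was 2.07 TPM, and together its members held 1.42 and 1.44% of TPM. Obp56g, Obp19d, Obp49a and Obp19b led with means of 3739, 2987, 2652 and 1157 TPM. The widest gap between the libraries among these 4 was 0.10 on the log2 scale, for Obp19b. The antennal members lush, Obp83a and Obp83b had means of 1.19, 2.64 and 4.23 TPM, from 3 to 10 counts per library. Of 20 CheA and CheB genes, a family of taste-hair proteins related to lipid carriers, 3 were detected, and CheA87a stood out with 191 and 183 TPM.

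Receptor genes were detected at low levels, and the levels fell off steeply within each family. Of the 9 sweet taste receptors 7 were detected, with a median of 1.34 TPM at the 35.1st percentile of all genes. Gr64e, which takes part in the taste of glycerol and fatty acids, had 8.22 and 6.49 TPM from 67.2 and 54.8 estimated counts. These counts and the 17.8 and 18.2 of Gr64d are fractions, so some reads were shared out by estimate. The levels of Gr64e and Gr64d may therefore not be separate measurements. Gr64b and Gr64c had the same 5.00 and 5.36 TPM and the same counts, which are not separate measurements. Gr5a, the trehalose receptor, had 1.95 and 2.87 TPM from 14 and 21 counts. Gr64d, Gr64f, a co-receptor for sugars, and Gr64a had means of 1.34, 1.29 and 1.24 TPM. The values of Gr64d, Gr64f and Gr64a overlapped, while those of other neighbours in this order, apart from the Gr64b and Gr64c pair, did not. A lack of overlap between 2 libraries does not establish the order, since several of these genes had few counts, Gr61a only 5 and 6. Gr61a and the fructose receptor Gr43a were below 1 TPM in the mean, at 0.640 and 0.338, and Gr43a rested on 1 and 4 counts.

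Of the 51 other gustatory receptors 10 were detected, with a family median of 0.296 TPM. Gr39a led with 8.48 and 7.95 TPM. Gr33a, Gr66a and Gr32a, which act together in neurons for bitter compounds, had 5.78 and 5.29 TPM, 2.99 and 3.18 TPM, and 2.15 and 3.10 TPM. Among ionotropic receptors 7 of 60 were detected. The co-receptor Ir76b was highest with 31.4 and 29.4 TPM, above Ir62a with 21.9 and 24.2 TPM and Ir76a with 7.37 and 9.43 TPM. Ir25a, the other broadly used co-receptor, had 5.56 and 6.31 TPM. The Ir76b values exceeded each of the 9 sweet receptors and the 51 other gustatory receptors in both libraries. Of 30 pickpocket channels 8 were detected. ppk15, ppk and ppk23 had means of 9.02, 8.88 and 8.50 TPM and did not differ beyond the gap between the libraries, while the water channel ppk28, outside the naming rule, had 3.27 and 2.22 TPM.

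**Figure D3:**
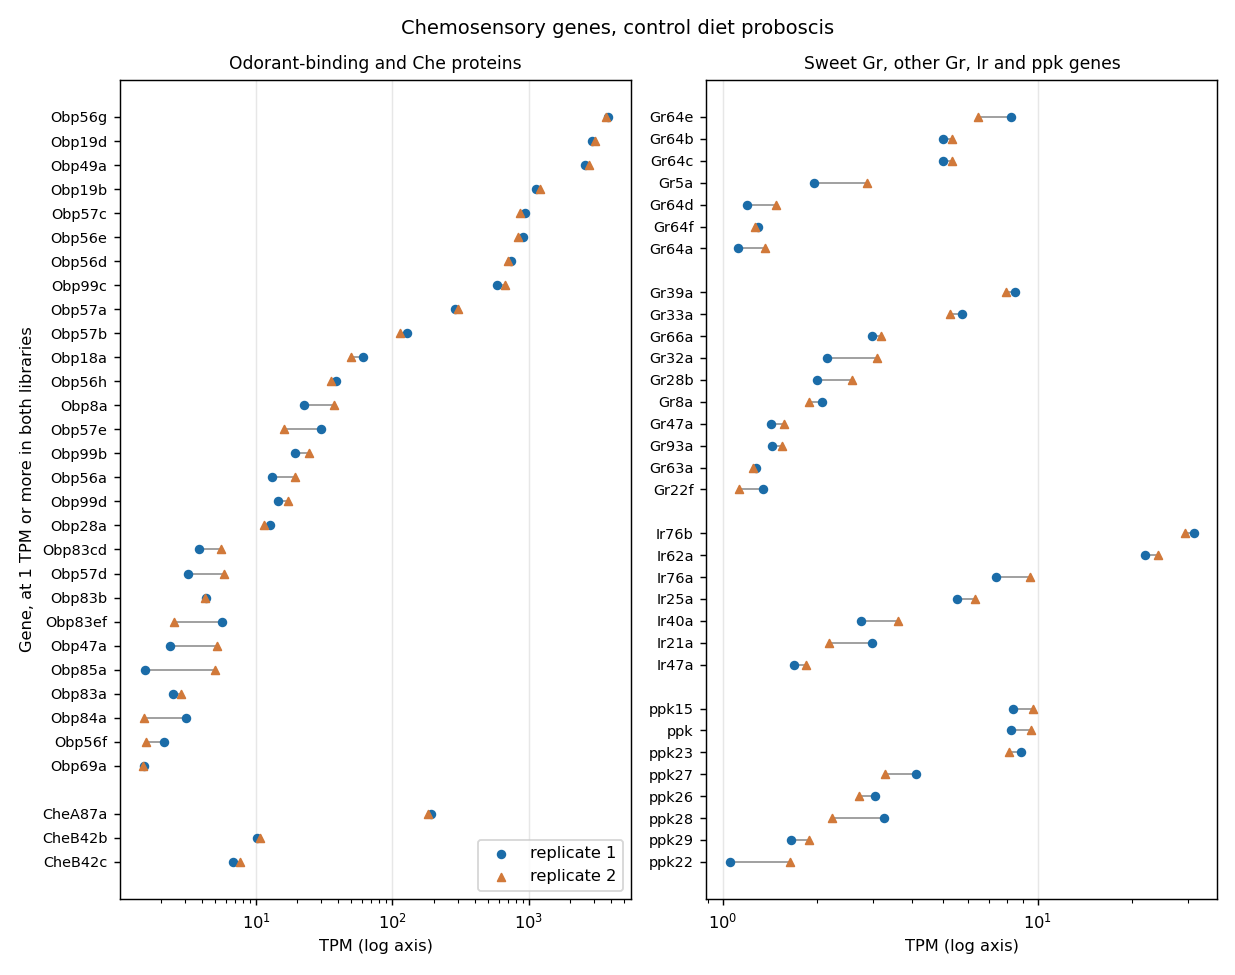
TPM (log axes) in replicate 1 (circles) and replicate 2 (triangles) of every detected odorant-binding and Che protein gene (left) and every detected sweet receptor, other gustatory receptor, ionotropic receptor and ppk gene (right). Binding proteins reach 3739 TPM in the mean (Obp56g), while the highest receptor, Ir76b, has 30.4 TPM.

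Most smell receptors were below 1 TPM. Of 60 olfactory receptor genes 6 were detected and 34 were listed at 0 in both libraries. Or1a was highest with 7.26 and 12.6 TPM, from 40 and 71 counts, and Or71a, a receptor of the maxillary palp, had 2.19 and 4.43 TPM. Orco, the co-receptor that nearly all olfactory neurons need, had 1.64 and 1.83 TPM from 14 and 16 counts. Of the 8 markers of maxillary palp olfactory neurons 2 were detected, and 5 (Or33c, Or42a, Or59c, Or85d and Or85e) were at 0 in both libraries, where a count of 0 allows up to 0.56 TPM in the mean for the shortest of them.

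Covering and airway tissues were detected as well. Of 10 genes of epidermis and cuticle tanning 9 were detected. laccase2, which hardens cuticle, had 206 and 219 TPM, the epidermal transcription factor grh had 107 and 117 TPM, and t (tan), which acts in pigment synthesis, had 81.5 and 80.3 TPM. The chitin synthase kkv had 1.16 and 1.21 TPM, and y (yellow) was listed at 0 in both libraries. A relative, yellow-d, had 501 and 550 TPM, the highest of the 14 members of its family, of which 7 were detected. Structural cuticle proteins were detected in 39 of 123 cases, with a median of 0.350 TPM and 42 members at 0 in both libraries. A few were high, among them Cpr65Au with 1838 and 2000 TPM, Cpr67B with 573 and 587 TPM and TwdlY with 184 and 226 TPM. All 4 tracheal genes were detected, with the chitin deacetylase genes verm and serp at 58.8 and 66.2 TPM and at 31.5 and 33.3 TPM, the growth factor receptor gene btl at 7.05 and 4.93 TPM and the transcription factor trh at 3.94 and 3.35 TPM.

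Fat body and blood cell markers were detected in part. Of 15 fat body genes 7 were detected, with apolpp, the precursor of the lipid carrier of the haemolymph, at 201 and 225 TPM. Some of the 15 are storage protein genes of the larva, so the count is not a measure of adult fat body. Apoltp had 37.3 and 40.6 TPM, the storage protein gene Lsp1beta had 26.0 and 31.6 TPM, and Lsd-1, a protein of lipid droplets, had 19.8 and 22.4 TPM. The yolk protein genes, named after their values were seen, were low, with means of 0.131 TPM for Yp1, 1.00 TPM for Yp2 and 0.138 TPM for Yp3, from 0 to 10 counts per library. Of 12 haemocyte genes 6 were detected. The phagocyte receptor gene crq had 42.6 and 38.1 TPM and the transcription factor srp had 24.4 and 26.8 TPM, whereas Hml (hemolectin), a defining marker, had 1.27 and 1.44 TPM.

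Most markers of other organs were low or at 0, with exceptions in several lists. Of 15 photoreceptor genes 2 were detected. norpA, a phospholipase C that also acts outside the eye, had 24.6 and 21.9 TPM, while the main rhodopsin ninaE had 1.17 and 2.41 TPM from 9 and 19 counts. The next members, trpl and Arr2, had means of 0.342 and 0.330 TPM. In the gut list 2 of 10 were detected, Jon25Bi, a serine protease, with 103 and 108 TPM, and mex1 with 4.04 and 4.78 TPM, and the other 8 had means of 0 to 0.132 TPM. In the salivary gland list 3 of 9 were detected. They were CrebA, a regulator of secretion used in many secretory cells, with 101 and 106 TPM, fkh with 2.43 and 2.91 TPM and sage with 2.57 and 2.44 TPM. The Sgs genes of this list encode glue proteins of the larva, so its count does not tell whether adult salivary tissue was sampled. Of 7 oenocyte and hydrocarbon genes 2 were detected, Desat1 and Cpr, and the oenocyte P450 Cyp4g1 had 0.434 and 0.425 TPM. None of 11 testis genes and none of 10 male accessory gland genes reached 1 TPM in both libraries, and their highest means were 0.587 TPM for ProtA and 0.633 TPM for Mst57Da. Of 12 ovary genes, the eggshell genes Cp38 and Cp36 were detected, with means of 3.33 and 2.41 TPM. All 23 genes on the Y chromosome were below 1 TPM.

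**Figure D4:**
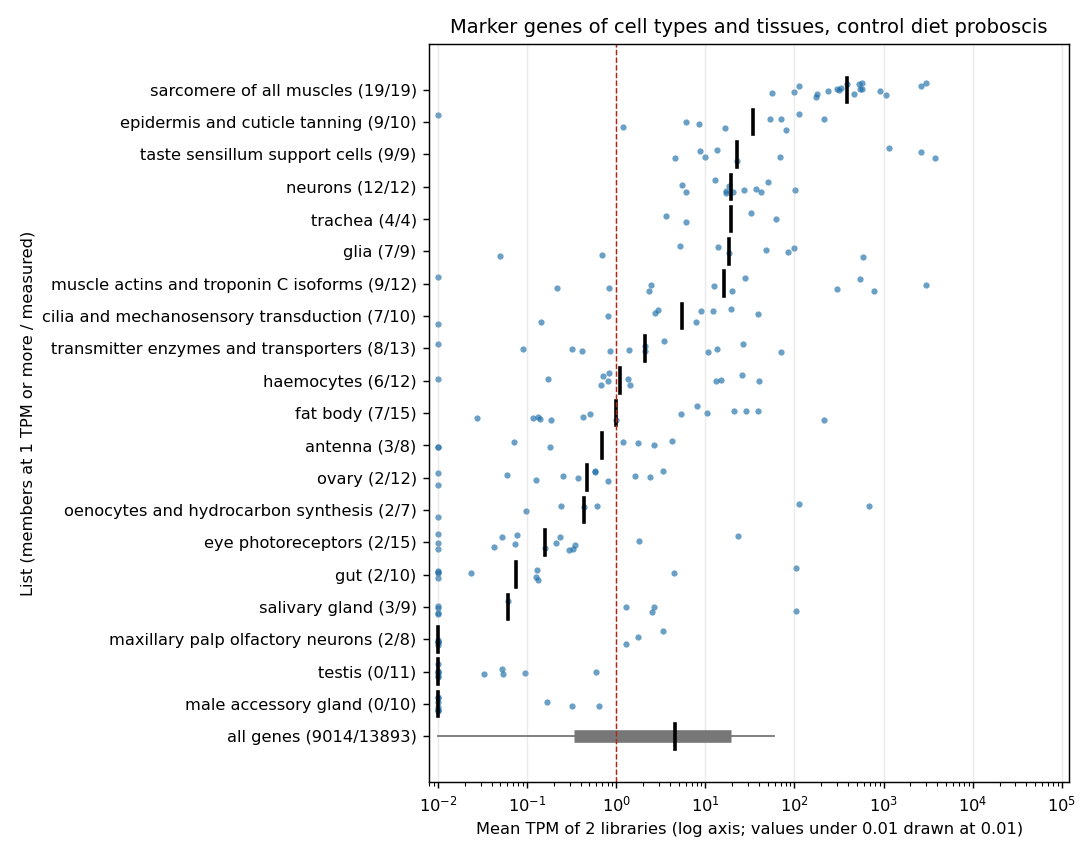
Mean TPM of the 2 control diet libraries (log axis, values under 0.01 drawn at 0.01) for each gene of 20 tissue and cell type lists, sorted by median (black bar), with the number detected and measured after each name and the 1 TPM line dashed. The bottom row gives all 13893 genes with their median of 4.59 TPM, and the sarcomere list lies highest at a median of 390 TPM.

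Among Hox genes, which give segments of the body their identity, Scr, Dfd and pb were highest, and 6 of 8 were detected. Scr, which acts in the labial segment, had 143 and 170 TPM, Dfd, of the maxillary segment, had 130 and 140 TPM, and pb, whose loss turns the labellum into other appendages, had 93.0 and 102 TPM. The thoracic gene Antp had 16.7 and 18.3 TPM, and lab, another gene of the head, and Abd-B had means of 1.71 and 1.58 TPM. Ubx and abd-A, genes of the posterior thorax and abdomen, had means of 0.0350 and 0.0722 TPM, from 0 to 2 counts per library. The gap between pb and Antp, the neighbours in this order, was wider than the gap between the libraries for either gene. Among 10 other selector genes of head and appendages 8 were detected. hth had 91.5 and 113 TPM, Dll had 63.2 and 68.6 TPM, and exd, the partner of Hox proteins, had 31.3 and 33.8 TPM. Of the eye development genes in this list, eya, so and toy were detected, with means of 4.56, 4.43 and 1.40 TPM. The others, ey and dac, had means of 0.672 and 0.171 TPM. All 8 measured genes of sex determination and dosage compensation were detected, from mof at 6.84 TPM to Sxl at 121 TPM, with dsx at 88.1 and 97.2 TPM and fru at 31.7 and 31.9 TPM.

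Antimicrobial peptide genes showed the widest gap between the libraries among the gene lists compared. Lists with too few members at a mean of 10 TPM or more, such as lysozymes and olfactory receptors, were not compared. Of 22 such genes 15 (68.2%) were detected, near the 64.9% of all genes, with a median of 32.6 TPM. IM3, an immune-induced short peptide, had 1162 and 1688 TPM, Drsl4 had 404 and 416 TPM, Dro (drosocin) had 283 and 392 TPM and Drsl5 had 258 and 306 TPM. Among the 14 members with a mean of 10 TPM or more, 12 were higher in replicate 2. Their median log2 difference was 0.49, against 0.10 over all genes of that level, and no other list compared had a larger median. After rescaling without CG15579 these values were 11 of 14 and 0.39. Of 13 peptidoglycan recognition proteins, sensors of bacteria, 10 were detected, and PGRP-LC was highest with 87.2 TPM in each library. The 6 lysozyme genes, in contrast, were at most at 4.07 TPM in the mean (LysX).

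Of 82 cytochrome P450 genes 64 were detected with a median of 5.97 TPM, and Cyp313a1 and Cyp4d21 led with 595 and 582 TPM and 343 and 348 TPM. Of 35 glutathione transferase genes 27 were detected, with GstD1 at 735 and 821 TPM. The starch and maltose enzymes were detected in 7 of 14 cases, with the maltase Mal-B2 at 184 and 173 TPM and the amylase Amy-p at 93.6 and 111 TPM. Estimated counts were fractions for Amy-p (725.8 and 883.4) and for the amylase Amy-d (315.2 and 339.6). Some reads were thus shared out by estimate, and the 2 levels may not be separate measurements. Among iron and metal proteins Fer2LCH, a ferritin subunit, had 761 and 825 TPM, Tsf1 (transferrin) had 519 and 511 TPM and the metallothionein MtnA had 338 and 439 TPM. Vha16-1, a subunit of the vacuolar proton pump, led its family with 1284 and 1383 TPM. Of its 33 members 21 (63.6%) were detected, near the 64.9% of all genes.

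The clock and signalling genes of the lists described next were nearly all detected, apart from neuropeptides. All 10 clock genes were detected, from 14.0 TPM for cyc to 150 TPM for Pdp1, with cry, the blue light receptor, at 71.4 and 75.4 TPM, tim at 24.3 and 26.7 TPM and per at 14.1 and 15.3 TPM. Nplp2, a small secreted protein first described as a neuropeptide precursor, had 574 and 696 TPM, and Nplp4 and ITP had means of 132 and 52.1 TPM. Of 34 neuropeptide genes 14 were detected. All 15 genes of insulin and AKH signalling were detected, with Thor, an inhibitor of translation, at 653 and 668 TPM, the insulin receptor InR outside the naming rule at 32.2 and 34.4 TPM, and AkhR at 5.33 and 5.45 TPM. The 7 genes of the O-GlcNAc and hexosamine pathway were all detected, with Gfat1 at 86.9 and 87.9 TPM, the O-GlcNAc transferase gene sxc at 22.9 and 26.0 TPM and Oga, which removes the modification, at 5.70 and 6.56 TPM. Next to Arc1 among activity-regulated genes, kay, the fly Fos gene, had 324 and 355 TPM, while Hr38 had 3.03 and 3.13 TPM and Arc2, next to Arc1 on 2R, had a mean of 13.6 TPM.

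**Figure D5:**
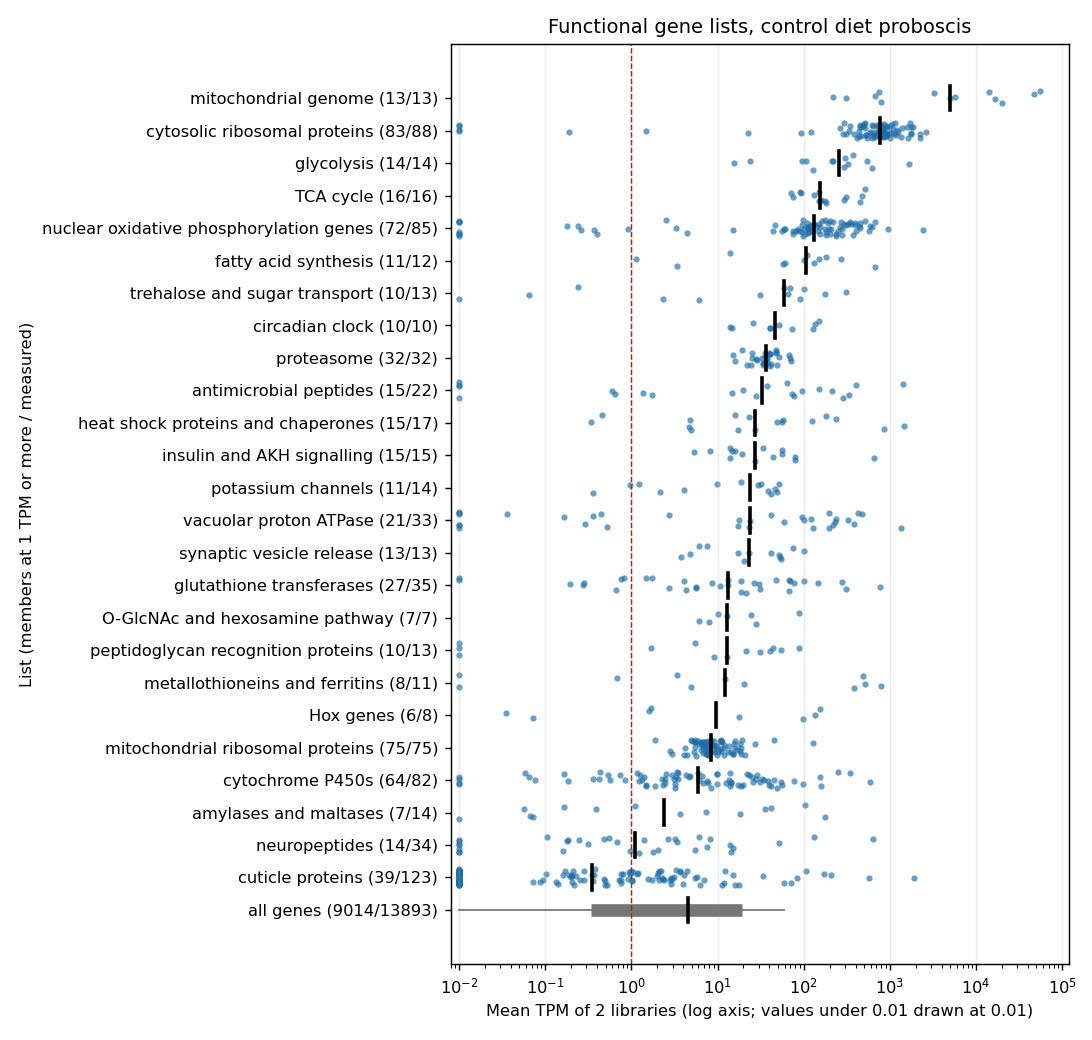
Mean TPM of the 2 control diet libraries (log axis, values under 0.01 drawn at 0.01) for each gene of 25 functional lists, sorted by median (black bar), with the number detected and measured after each name and all genes in the bottom row. The mitochondrial genome and cytosolic ribosomal proteins lie highest, at medians of 4933 and 763 TPM, and cuticle proteins lowest, at 0.350 TPM.

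Most genes with several annotated transcripts used one of them for the larger part. Of 3673 genes with 2 or more transcripts and a mean of 10 TPM or more, 3085 (84.0%) had the same leading transcript in both libraries, and its median share of the gene's TPM was 67.6%. In 822 of them the leading transcript held 90% or more. Muscle genes ranged widely here. Mf had 17 annotated transcripts, and a transcript of 824 bases held 57.0 and 56.6% of its TPM. The leading transcript of Zasp66 held 58.4 and 55.0%, and that of Act5C, with 5 transcripts, held 55.2 and 69.9%. Those of Mhc and of Zasp52, which is outside the naming rule, held 29.4 and 33.7% and 28.0 and 31.0%, with 21 transcripts each. Act57B and Mlc2 had 1 transcript. These shares are the authors' estimates for transcripts that overlap in sequence.

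By chromosome the TPM were spread unevenly. Arm 2R held 29.4 and 32.8% of TPM, with CG12158, CG8343 and Arc1 among its 2805 genes. The mitochondrial genome held 16.9 and 17.3%. The X chromosome held 19.1 and 13.1%, more than the mitochondrial genome in replicate 1 and less in replicate 2, and the share of CG15579, which lies on X, was 6.84 and 0.164% in the same libraries. Arms 3L, 3R and 2L held 12.6 and 13.2%, 11.0 and 11.9%, and 10.2 and 10.9%, and chromosome 4 held 0.365 and 0.401%.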

How the data were processed

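RNA of pooled proboscises was sequenced in 2 control diet libraries after 7 days. Per the submitters' processing notes, reads were trimmed with Trimmomatic 0.22 and transcripts were quantified with kallisto 0.43. Sleuth is named there without a version. The genome build and annotation release are not given in the sources used here. Per the file headers, the deposited tables hold estimated counts (expected counts, not normalized), TPM as scaled by the authors within a library, and effective lengths, for 30449 targets. Transcripts were joined to genes by the gene column of the authors' deposited table, and TPM and estimated counts were summed over each of 13893 genes without rounding. A set of 50 transcripts without a gene (0.0459 and 0.0493% of counts) and 2 transgene sequences with 0 counts were left out. Positions are those of BDGP6, release 6, identical to the position in the authors' deposited table for 9422 of 9466 genes.

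The design has no comparison between groups, so none was tested and no p-value is given. Values are given for replicates 1 and 2 in this order, or as means. A gene was detected at 1 TPM or more in both libraries, log2 values used a pseudocount of 1, and percentiles are ranks among all genes. Of 71 gene lists 67 had a measured member, and the lists of long non-coding, ribosomal and small RNA genes and of transgenes had none. Genes over 50 counts with the same counts and TPM as another gene, 71 in all, are not separate measurements. The members and lists were chosen with earlier results of these data known. Genes open to naming were the 30 with the highest mean TPM and, in each list, the 4 highest members (all members in lists of up to 10). Also open were the 10 with the widest gap between libraries among genes with a mean of 10 TPM or more, and the 6 highest muscle genes for transcripts. Not all of these are named. Any other gene named was chosen after its values were seen. The chi-square and percentile computations were tested on simulated data. Python 3.11.15, pandas 2.3.3, numpy 2.4.6, scipy 1.17.1 and matplotlib 3.10.9 were used. Alternatives left out each replicate, the mitochondrial genome with Arc1, CG15579, length or minor transcripts, and changed the minimum TPM and the pseudocount.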

Additional observations from a re-analysis of the deposited data

Results flagged for a closer look

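CG15579 was also high in libraries that the description does not otherwise use. It had 290706 TPM in sugar diet replicate 1 and 93954 TPM in sugar diet replicate 2, against 68315 and 1641 TPM in control diet replicates 1 and 2. By estimated counts the gene took 7.56 and 2.21% on the sugar diet, against 1.66 and 0.0378% on the control diet. Both sugar diet values lay above both control diet values, and within each diet the 2 libraries were also far apart. The difference between the diets was not tested here.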

How the results depend on the processing

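The description holds for 2 pooled libraries, and its scale is shared by all genes. The 10 most abundant genes held 40.8% of TPM. The share was 35.6% over nuclear genes without Arc1, 28.1% as CPM, 45.5% with the leading transcript of each gene alone and 37.3% with counts per annotated length. The mitochondrial genome held 17.1%, and 10.6% as CPM, 19.0% with leading transcripts, 17.7% without CG15579 and 17.9% with annotated length. It has no value where it is itself left out. The median absolute gap between the libraries was 0.15, against 0.19 with a pseudocount of 0.1, 0.17 over genes with a mean of 1 TPM or more and 0.13 without CG15579. The settings without CG15579 and with annotated length were added after the data were seen. With replicate 1 or 2 left out, detected genes numbered 9417 and 9280, the 10 leading genes held 40.9 and 42.6%, and the mitochondrial genome held 17.3 and 16.9%. Of the 30 leading genes 18 to 29 stayed among the 30 under these settings. CG12158 was 1st by TPM, 17th by CPM and 5th with annotated length. CG15579 was 2nd in replicate 1 and 51st in replicate 2. List medians as percentiles moved by more than the SD of the 2 libraries in 53 of 67 lists as CPM, most for antimicrobial peptides (28.3 points). Among genes above 0 only they did so in 60 of 67 lists, most for the yellow family (31.7 points). A minimum of 5 TPM left 6447 genes detected, and the detected members summed over the lists fell from 924 to 735. A minimum of 0.5 TPM left 9668 genes and 988 members. The count changed by a large ratio in 22 lists at 5 TPM, with 22 fewer cytochrome P450s, and in 4 lists at 0.5 TPM. Lists with smaller changes are not among these 22 and 4. Receptors and other genes with few reads are limited by depth, and 508 detected genes had under 10 counts in a library. No paired analysis was possible because these values come from no test.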

Other observations

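Genes described in the authors' deposited table as having a chymotrypsin-type serine protease fold numbered 77. Together they held 7.13 and 7.21% of TPM in control diet replicates 1 and 2, and 4 of them (CG3088, CG9676, CG8329 and CG7829) were among the 100 most abundant genes. CG7829 had 2434 and 2456 TPM. The median of the 77 genes, 66 of which were detected, was 11.2 TPM. The median was 4.59 TPM over all genes and 12.7 TPM over all detected genes, and neither is a like set. The 25 genes described as C-type lectins held 5.28 and 5.40%, nearly all of it in CG8343. CG11211, the other lectin among the 100 most abundant genes, had 2084 and 2067 TPM and lay 569 bases from CG8343 on 2R. The 18 genes with a Kunitz proteinase inhibitor domain held 0.229 and 0.249%, and IM33 led them with 1747 and 1908 TPM. The description exists for the genes that passed a filter of the authors, so these counts leave out others. The families were chosen after their values were seen.

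The same text names the stage at which a gene peaks in a reference time course. A peak in adult males only was named for 10 of the 28 genes with such text among the 30 most abundant (35.7%) and for 13 of 89 among the 100 most abundant (14.6%), against 401 of 8775 genes in all (4.57%). A peak in adult females only was named for none of the 100 most abundant and for 30 of 8775 genes. The sex of the flies is not given in the labels, and the shares were read after the values were seen.

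Some abundant genes were neighbours. Of the 100 most abundant genes, Obp19b and Obp19d on X lay 1800 bases apart, with means of 1157 and 2987 TPM. IM3 and CG15068 on 2R lay 1618 bases apart, with means of 1425 and 1077 TPM, and each was higher in replicate 2, CG15068 with 899 and 1254 TPM. CG10570 and CG42502 on 2L overlap and have identical values of 1108 TPM in the mean.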
